A study of Mus musculus with 2 samples.

Results

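Notch receptors, their ligands and the glycosyltransferase Lfng were compared between Linc1548 knockout and wild type cells at day 5 of neural differentiation. The members were the 10 genes Notch1, Notch2, Notch3, Notch4, Dll1, Dll3, Dll4, Jag1, Jag2 and Lfng, taken as every non-control probe that the array design names for one of them. They were read by 16 of the 56589 probes, and they are 10 of the 32946 gene names on the array once lincRNA probes are set aside. The knockout group was 1 array of 46C mouse embryonic stem cells labelled KO-Linc1548, and the wild type group was 1 array of unmodified 46C cells. Linc1548 is a long intergenic non-coding RNA, and 46C cells report Sox1, a gene of early neural cells, by GFP. Both cultures were grown as floating aggregates in a serum-replacement medium. Whether the knockout cells were 1 clone is not given in the sources used here. With 1 array per group there is no replicate check on any difference below, and no test was run.

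Notch signalling passes between touching cells. A Delta or Jagged ligand on one cell binds a Notch receptor on its neighbour, the receptor is cut by proteases, and its inner part enters the nucleus, where it joins Rbpj and a Mastermind protein to switch on genes such as the Hes and Hey repressors. In the forming nervous system, cells on the way to becoming neurons raise Dll1 under proneural factors and hold their neighbours in the progenitor state, which is known as lateral inhibition. Lfng adds a sugar to Notch and in this way favours its response to Delta over Jagged ligands.

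In the knockout, the ligand Dll1 and Lfng were about equally far below wild type, at 8.97-fold and 9.39-fold lower, and Dll3 (4.41-fold), Jag1 (2.69-fold) and the receptor Notch2 (2.44-fold) were also lower. The receptors Notch1, Notch3 and Notch4 and the ligand Jag2 lay within 2-fold. Of the 9 members with a value on both arrays, 5 were past 2-fold lower and 0 past 2-fold higher, where the shares over the 18671 measured genes were 8.81% lower and 11.5% higher by that much. The median log2 difference was −1.29 over the members and 0.10 over all measured genes. Dll4 passed the background limit in wild type alone. All differences are log2 of knockout minus wild type, and all signals are processed signals scaled to a common 75th percentile, so signals compare a probe between arrays and not 1 gene with another.

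Both arrays came from 1 slide. On the knockout array 58.5% of probes were well above background, against 61.4% on the wild type array, and 0 probes were saturated on either. No probe (0) names Linc1548, so the knockout label was not checked against the targeted RNA. Probes printed in many spots gave a spot SD of 0.096 for a log2 difference, and 0.171 for probes with signals under 200, although that figure rests on 6 probes of the knockout array and 3 of the wild type array. Each member probe was printed in 1 spot. For member probes measured on both arrays the scanner software's own error was between 10.0% and 20.6% of the signal, and for the other member probes it ran up to 100.4%. These errors lie within an array and leave out the spread between cultures. In RNA from whole aggregates, fewer cells of a type and less RNA per cell cannot be told apart.

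**Figure D1:**
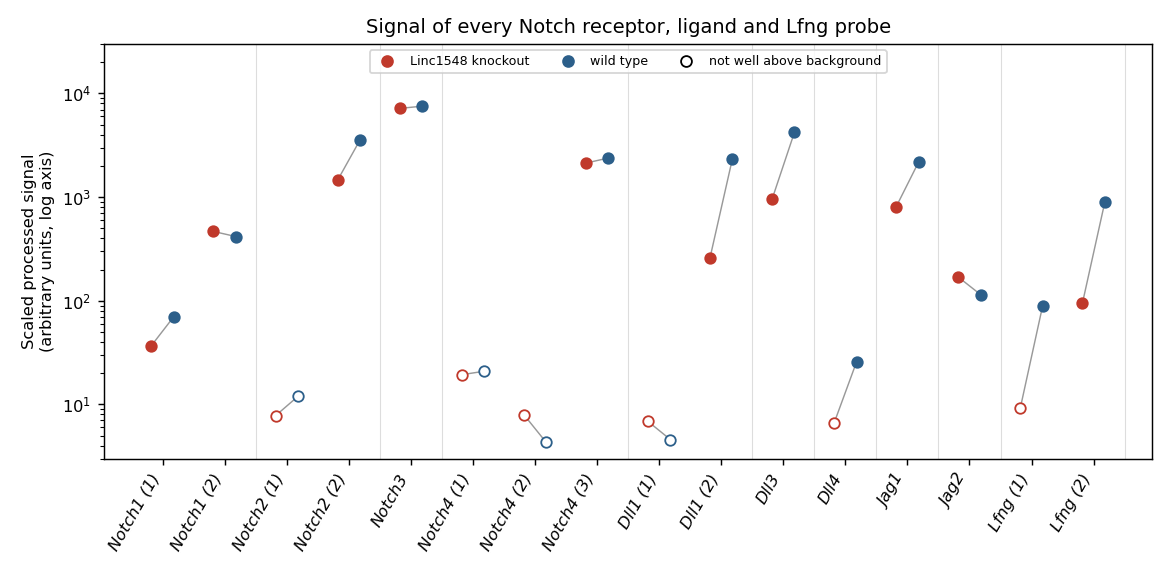
Scaled processed signal (arbitrary units, log axis) of each of the 16 member probes, with the Linc1548 knockout array (red) left of the wild type array (blue); numbers in parentheses are probes of 1 gene in order of position in their transcripts, and open symbols are not well above background. The Dll1 probe that detects RNA reads 260.0 in the knockout against 2332 in wild type, while the Notch3 pair is close to level at 7170 in the knockout and 7535 in wild type.

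The signals rest on the probes below, given by the first 30 bases of each 60-base probe, because the 2 probes of Dll1, Notch1 and Lfng show where readings of 1 gene differ or match. They are numbered as in the plot of member signals. The second Dll1 probe (chr17:15504623-15504682, minus strand, mm9) carries the result for that gene, and the first (chr17:15513726-15513785) lies 9103 bases upstream and was not well above background on either array. The second Notch1 probe (chr2:26319440-26319499, minus strand), designed on the RefSeq transcript, lies 34609 bases downstream of the first (chr2:26354049-26354108). The second, brighter Lfng probe (chr5:141091224-141091283, plus strand) lies 1068 bases downstream of the first (chr5:141090156-141090215). No member probe shared 25 or more bases with a probe of another gene.
Dll1 probe 1: acactatccggaccccaattccccatttcc
Dll1 probe 2: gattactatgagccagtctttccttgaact
Notch1 probe 1: agaactggactgtactcaggagtgagcgtc
Notch1 probe 2: tcctgcagtggagggggccttgagacaggc
Lfng probe 1: ctatggcatgtttgagaacaagcggaacgc
Lfng probe 2: tttggaaagctggacaatgagtgccttagt

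Among the receptors, 1 of 4 was at least 2-fold lower in the knockout, with a median log2 difference of −0.27. Notch2, a receptor of many progenitor tissues, read 1456 on the knockout array and 3547 in wild type, with a log2 difference of −1.29 that 5.71% of measured genes matched or exceeded in the downward direction. Its probe lies at chr3:97953914-97953973 (plus strand, mm9). A further Notch2 probe, 49494 bases upstream and designed on an Ensembl transcript, read 7.78 in the knockout and 11.9 in wild type, which is not well above background on either array. Notch2 was the only receptor past the 2-fold limit, and its value rests on 1 probe. With dim probes kept, its log2 difference was −0.95, short of that limit.

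Notch1, the receptor best known from neural progenitors, had probes that disagreed. The probe designed on its RefSeq transcript read 466 on the knockout array and 416 in wild type, with a log2 difference of 0.16. The probe designed on an Ensembl transcript read 36.9 in the knockout and 70.1 in wild type, a log2 difference of −0.93. The gene value of −0.38 is the midpoint of these, and its direction depends on which probe is read, so Notch1 has no settled direction. Among 4435 genes with 2 measured probes, 8.75% had probes more than 1 apart on the log2 scale, as Notch1 did.

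Notch3, a receptor of neural progenitors and of the muscle cells of vessels, read 7170 on the knockout array and 7535 in wild type, with a log2 difference of −0.07 that is smaller than the spot SD. Its probe lies at chr17:32257888-32257947 (minus strand, mm9). Notch4, known chiefly from endothelium, read 2129 in the knockout and 2381 in wild type, a log2 difference of −0.16, at chr17:34725384-34725442 (plus strand). Both lay well inside the 2-fold limit. The other Notch4 probes were not well above background on either array, so its value rests on 1 of 3 probes.

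The Delta ligands lay far lower than the receptors. Dll1, the main ligand of lateral inhibition, read 260.0 on the knockout array and 2332 in wild type, with a log2 difference of −3.17. Only 104 of the 18671 measured genes (0.557%) were as low or lower. Dll3, a divergent Delta protein that acts on Notch inside its own cell and does not activate it on neighbours, read 955 on the knockout array and 4215 in wild type, with a log2 difference of −2.14, and 1.98% of genes were as low or lower. Its probe lies at chr7:29078763-29078822 (minus strand, mm9). Dll4, the ligand of sprouting vessels that some neural progenitors also use, read 6.64 on the knockout array, not well above background. It read 25.6 on the wild type array, where it passed the background limit. On the knockout array no probe under 30.5 passed the background limit, so no fold is given for Dll4.

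The Jagged ligands were divided. Jag1 read 809 on the knockout array and 2173 in wild type, with a log2 difference of −1.43, and 4.66% of genes were as low or lower. Its probe lies at chr2:136907433-136907492 (minus strand, mm9). Jag2 read 169 in the knockout and 115 in wild type, a log2 difference of 0.56 that stayed under the 2-fold limit, at chr12:114146887-114146946 (minus strand). Jag2 was the only measured member whose value was above 0, and 77.4% of measured genes were as low or lower.

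Taken by role, the median log2 difference was −0.27 over 4 receptors, −2.65 over 2 measured Delta ligands and −0.43 over 2 Jagged ligands. The Delta median minus the receptor median was −2.38 on the log2 scale, and the Jagged median minus the receptor median was −0.16. Over all 4 measured ligands, 3 were at least 2-fold lower. These roles hold few genes and were not compared by a test. In each processing setting run, Dll1 and Dll3 both lay below all 4 receptors, although Dll1 was at −1.29 where dim probes were kept.

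**Figure D2:**
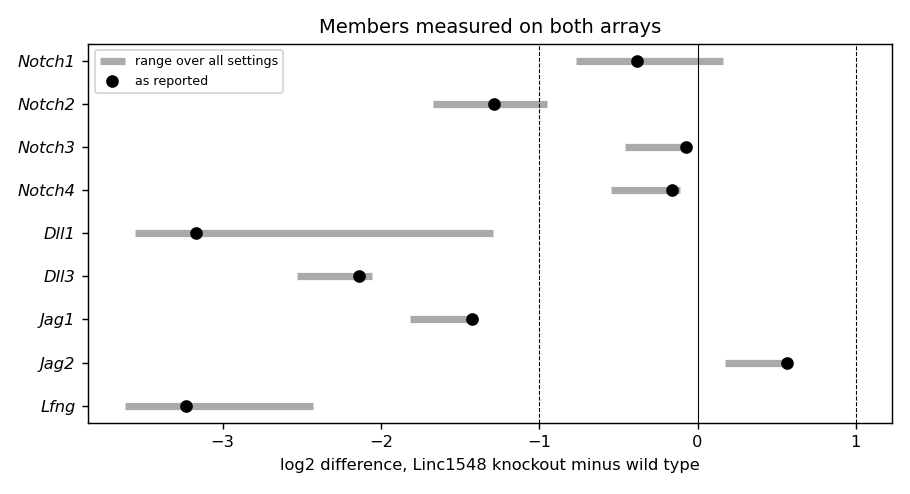
log2 difference (Linc1548 knockout minus wild type) of the 9 members measured on both arrays, as reported (points) and over all processing settings run (grey bars); dashed lines mark 2-fold. Lfng, Dll1, Dll3 and Jag1 stay below −1 in every setting that measured them, whereas the Notch1 bar crosses 0.

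Lfng matched Dll1 in size. Its brighter probe read 94.9 on the knockout array and 891 in wild type, with a log2 difference of −3.23, and 0.509% of genes were as low or lower. The dimmer probe read 9.29 on the knockout array, not well above background, and 89.9 on the wild type array, which gives a lower bound of at least 2.95-fold lower in the knockout. Both probes thus point down. The knockout signal of the brighter probe is itself modest, and with normexp background correction the log2 difference was −2.43.

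**Figure D3:**
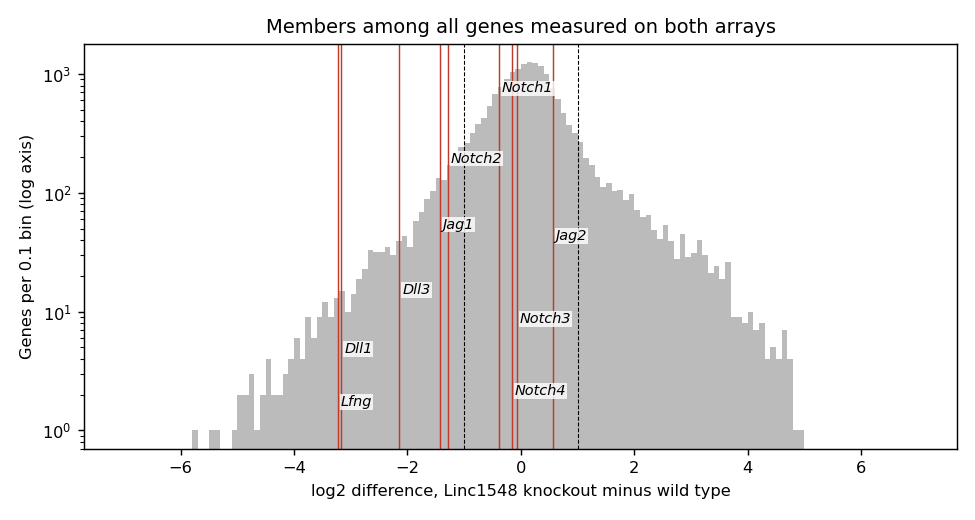
Number of genes per 0.1-wide bin of log2 difference (log axis) for the 18671 genes measured on both arrays, with the 9 measured members as red lines; dashed lines mark 2-fold. Lfng and Dll1 sit in the thin lower tail at −3.23 and −3.17, and Notch1, Notch3, Notch4 and Jag2 sit within the central mass.

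Most genes of the machinery that the ligands and receptors share lay within 2-fold, as did most of all measured genes. The machinery was read by 7 lists of ligand endocytosis, protease, glycosyltransferase, nuclear, co-repressor, turnover and non-canonical ligand genes. All 52 of 52 genes were measured, with a median of −0.10, and 44 lay within 2-fold. The other 8 were past 2-fold lower, a larger share than the 8.81% of all genes. In the other direction 0 passed the limit, beside 11.5% of all genes. None (0) of the 6 endocytosis genes passed the limit, among them Mib1, the ubiquitin ligase that makes ligands active (−0.62). Of 10 protease genes only Aph1b, a gamma-secretase subunit, was past 2-fold lower (−1.12), on 1 of its 2 probes. Adam10, which makes the first cut in bound Notch, was at −0.93, the median of 2 probes. The brighter Adam10 probe read 2336 in the knockout and 5803 in wild type, which is past 2-fold by itself.

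Mfng, a Fringe enzyme like Lfng, was also lower, at 2521 on the knockout array and 9467 on the wild type array (log2 −1.91), while the third Fringe gene, Rfng, was at −0.39. All 3 Mastermind co-activators were at least 2-fold lower, with Maml2 at −1.89, Maml3 at −1.34 and Maml1 at −1.09, whereas their DNA-binding partner Rbpj was at 0.85. In the list of inhibitors and turnover, Dtx4, a Deltex ubiquitin ligase, was 4.92-fold lower and the other 8 genes lay within 2-fold. Of 6 non-canonical ligands, Dlk1 (5.13-fold), a Delta-like protein that lacks the receptor-binding DSL domain, and Mfap2 (4.97-fold), a microfibril protein, were lower and 4 were within 2-fold.

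Genes downstream and upstream of the ligands were further apart. Of 8 measured Notch targets, 5 were lower by at least 2-fold and 1 was higher by that much (median −2.08). Hes5, the repressor through which Notch holds neural progenitors, read 1538 in the knockout and 42257 in wild type (log2 −4.78), on 1 of its 2 probes. Hey1 (−2.69), Nrarp (−2.68), Fabp7 (−3.19) and Hes3 (−1.47) were lower too. Hes1 (−0.20) and Hes7 (0.03) lay within 2-fold, and Dtx1, a Deltex gene that Notch induces in lymphoid cells, was 3.26-fold higher. Heyl passed the background limit in wild type alone, and Hey2 in neither.

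The list of 8 proneural and neurogenic regulators holds bHLH factors, some of which are known to switch on Delta genes, and Insm1, a zinc finger repressor that acts after them. The 3 with a value on both arrays were all past 2-fold lower. Insm1 read 260.3 on the knockout array and 8641 on the wild type array (log2 −5.05). Neurod1, which drives neuronal differentiation, read 94.5 in the knockout and 519 in wild type (log2 −2.46). Neurog1, Neurog2, Neurog3 and Neurod4 passed the background limit in wild type alone. Neurod4 was at least 12.2-fold and Neurog2 at least 10.8-fold lower in the knockout, while the bounds of Neurog1 (1.73-fold) and Neurog3 (1.15-fold) were under the limit. Atoh1 passed the background limit on neither array. The part of these regulators in the Delta values was not tested.

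**Figure D4:**
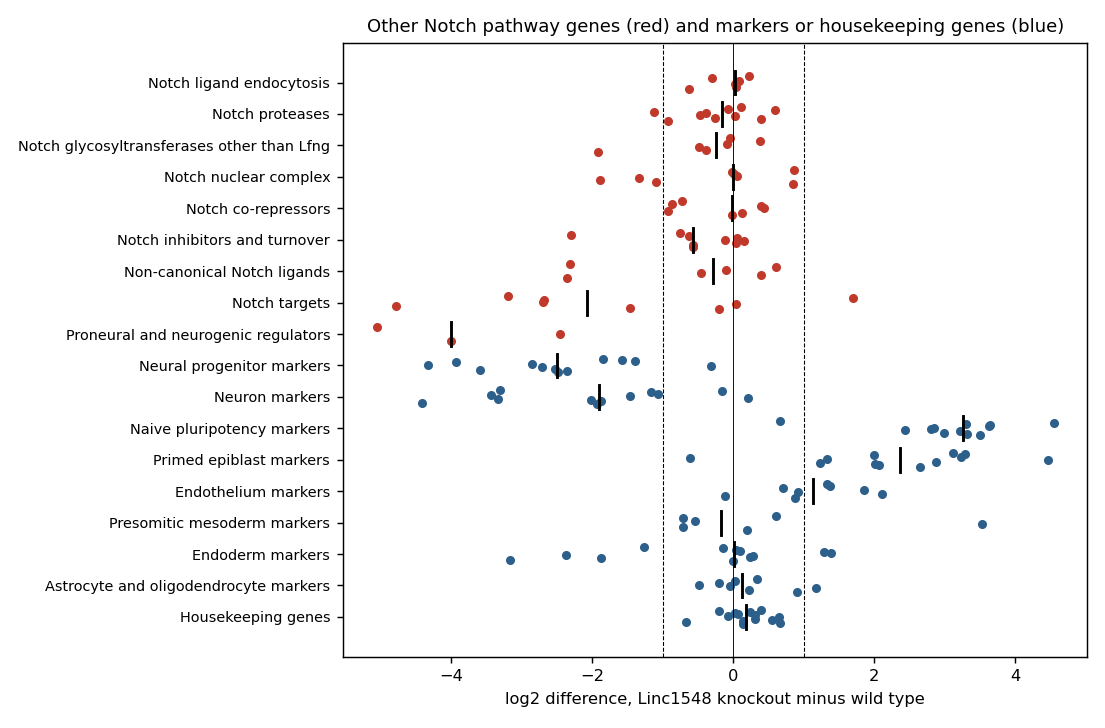
log2 difference (Linc1548 knockout minus wild type) of each measured gene in 9 lists of other Notch pathway genes (red) and in 8 marker lists and a housekeeping list (blue); black bars are list medians and dashed lines mark 2-fold. The medians of Notch targets, proneural and neurogenic regulators and neural markers lie to the left of −1. Those of pluripotency and endothelium markers lie to the right of 1, and those of the other 7 Notch pathway lists within 2-fold.

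Neural markers were lower like the Delta genes, and pluripotency markers were higher. Of 12 neural progenitor markers, 11 were at least 2-fold lower (median −2.50), and their summed signal, taken from the brightest probe of each gene, was 16016 on the knockout array and 99961 on the wild type array. Such sums give most weight to bright probes, as with Nr2f1, which gave 1455 of the knockout sum and 29265 of the wild type sum. Of 12 neuron markers, 10 were at least 2-fold lower (median −1.90), with summed signals of 57280 in the knockout and 77799 in wild type, of which Stmn2 alone gave 45858 in the knockout and 31163 in wild type. Of 12 naive pluripotency markers, 11 were at least 2-fold higher (median 3.26), with sums of 105299 in the knockout and 11439 in wild type, and of 12 primed epiblast markers 11 were at least 2-fold higher (median 2.36), with sums of 185593 in the knockout and 44594 in wild type. Dnmt3b alone gave 70187 of the primed epiblast sum in the knockout and 19778 in wild type. The part of cell type makeup in the member differences was not tested.

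Members are also known from other tissues, for example Dll4 and Notch4 from endothelium and Dll3 from presomitic mesoderm, so markers of such tissues were read as well. Of 12 endothelium markers, 8 were measured, 4 of them at least 2-fold higher and 0 lower (median 1.13, summed signals 23849 in the knockout and 9801 in wild type), while Tie1 and Erg passed the background limit on neither array and Cdh5 and Emcn in wild type alone. Egfl7 alone gave 20796 of the knockout sum and 8235 of the wild type sum. Of 10 presomitic mesoderm markers, 6 were measured, with 1 at least 2-fold higher and 0 lower (median −0.17, summed signals 8233 in the knockout and 3284 in wild type). The higher one, Tcf15, alone gave 6286 of the knockout sum and 548 of the wild type sum, so these sums mostly follow that gene in the knockout. Mesp1 and Msgn1 passed the background limit on neither array. Of 12 endoderm markers 4 were at least 2-fold lower and 2 higher (median 0.02, summed signals 10403 in the knockout and 30046 in wild type). Foxa2 alone gave 5975 of the knockout sum and 21971 of the wild type sum. Of 8 measured astrocyte and oligodendrocyte markers 0 were lower and 1 was higher (median 0.13, summed signals 4259 in the knockout and 4343 in wild type). All 14 housekeeping genes lay within 2-fold (median 0.19).

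The promoters of all 5 members at least 2-fold lower are shown, as the 250 bases before the annotated start (RefSeq, GRCm38.p6), 5′ to 3′ along the gene. Capitals mark matches, on either strand, to the proneural E-box CAGCTG, the RBPJ core TGGGAA, the SOX core ACAATG and the POU octamer ATGCAAAT. The windows are chr17:15376933-15377182 and, for a further annotated start, chr17:15375824-15376073 for Dll1 (minus strand), chr7:28301786-28302035 for Dll3 (minus strand), chr2:137116521-137116770 for Jag1 (minus strand), chr5:140607091-140607340 for Lfng (plus strand) and chr3:98013288-98013537 for Notch2 (plus strand).
Dll1 window 1: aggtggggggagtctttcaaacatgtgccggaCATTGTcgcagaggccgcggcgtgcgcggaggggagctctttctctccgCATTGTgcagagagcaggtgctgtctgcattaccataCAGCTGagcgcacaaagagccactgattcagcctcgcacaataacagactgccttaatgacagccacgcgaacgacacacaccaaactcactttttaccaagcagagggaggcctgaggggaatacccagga
Dll1 window 2: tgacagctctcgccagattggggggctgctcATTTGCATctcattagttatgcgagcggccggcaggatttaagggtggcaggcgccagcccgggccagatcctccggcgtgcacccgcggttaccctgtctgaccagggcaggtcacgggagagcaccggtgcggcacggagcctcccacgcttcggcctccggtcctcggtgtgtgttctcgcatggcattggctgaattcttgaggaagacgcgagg
Dll3: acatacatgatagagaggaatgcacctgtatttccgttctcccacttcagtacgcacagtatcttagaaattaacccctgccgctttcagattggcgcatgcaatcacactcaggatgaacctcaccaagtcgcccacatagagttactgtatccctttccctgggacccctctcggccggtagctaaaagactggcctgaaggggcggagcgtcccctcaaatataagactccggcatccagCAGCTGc
Jag1: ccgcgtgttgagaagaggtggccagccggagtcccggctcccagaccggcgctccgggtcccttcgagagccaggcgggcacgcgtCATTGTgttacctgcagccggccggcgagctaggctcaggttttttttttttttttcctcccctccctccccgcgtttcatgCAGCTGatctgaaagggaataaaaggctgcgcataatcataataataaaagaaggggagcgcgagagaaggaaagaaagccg
Lfng: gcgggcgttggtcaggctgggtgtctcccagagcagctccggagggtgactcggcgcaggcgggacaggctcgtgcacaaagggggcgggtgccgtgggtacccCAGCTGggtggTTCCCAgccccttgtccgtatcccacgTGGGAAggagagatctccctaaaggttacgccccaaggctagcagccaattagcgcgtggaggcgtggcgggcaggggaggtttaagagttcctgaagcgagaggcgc
Notch2: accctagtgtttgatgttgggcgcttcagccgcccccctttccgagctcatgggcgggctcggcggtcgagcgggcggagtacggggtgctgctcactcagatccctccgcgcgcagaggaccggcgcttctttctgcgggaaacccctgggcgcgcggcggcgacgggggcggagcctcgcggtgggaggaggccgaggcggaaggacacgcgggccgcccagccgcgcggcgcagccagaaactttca

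The search covered 300 bases, 250 before and 50 after each start, and the RefSeq table held 11 such windows for the 10 members, with 2 for Dll1. CAGCTG was present in 4 of the 11 windows, those of Dll3, Jag1 and Lfng and the first of Dll1, against 16.3% of 32851 windows of all genes. By member, 4 of the 5 genes at least 2-fold lower held it, Notch2 being the exception, and 0 of the 4 genes within 2-fold did. The motifs were chosen with earlier results of these data known, and a link between matches and differences was not tested. The match lay 132 bases before the start in Dll1, 7 before in Dll3, 82 before in Jag1 and 146 before in Lfng, which had another just past its start. CAGCTG reads the same on both strands and was counted once.

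TGGGAA or its complement was found only in the Lfng window, with 2 matches, against 25.6% of all windows. The SOX core ACAATG was found in the windows of Jag1 and Notch4 and, with 2 matches, in the first of Dll1, against 12.6% of all windows. The octamer, the motif of POU factors such as OCT6, was found in the second Dll1 window only, 219 bases before that start, against 1.74% of all windows. By member, the SOX core was held by 2 of the 5 genes at least 2-fold lower and by 1 of the 4 within 2-fold. The RBPJ core and the octamer were each held by 1 of the 5 and 0 of the 4. A match is a run of letters and was not tested as a site of binding.

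**Figure D5:**
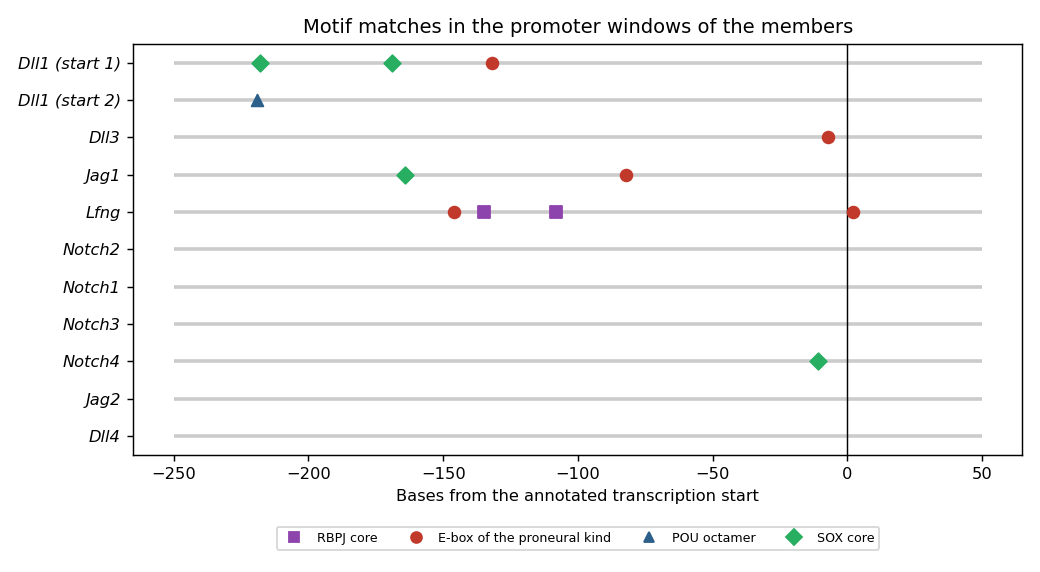
Position of motif matches, in bases from the annotated transcription start, in the 11 promoter windows of the members (grey lines, 250 bases before to 50 after the start), with the 5 members at least 2-fold lower at the top. Circles, the proneural E-box, appear in Dll1, Dll3, Jag1 and Lfng, and in none of the lower rows. Diamonds, the SOX core, appear in Dll1 and Jag1 and also in the lower row of Notch4.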

How the data were processed

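Total RNA of 1 Linc1548 knockout and 1 wild type culture was labelled with Cy3 and read in 1 colour, per the labels. The deposited intensity of each spot comes from Agilent Feature Extraction 10.7.1.1, which, per the file headers, subtracted background and removed trends within an array but did not scale one array to the other. Probe positions are on mm9, per the file headers. The deposited mean and background intensity served only the normexp alternative.

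Outlier spots were left out (155 on the knockout array and 173 on the wild type array), spots of a probe were averaged as log2 values, and each array was centred on its 75th percentile (652 in the knockout and 864 in wild type before centring). A probe counted as measured where at least 0.5 of its spots were well above background on both arrays and it was not saturated. A gene took the median of its measured probes, and 2-fold was the limit. Members kept the names of the array design. Other genes were named through RefSeq (GRCm38.p6) by accession (32982 probes), symbol (10220) or synonym (520), and 8417 probes kept the design's name. A further 4450 probes, named in the design as lincRNA or by chromosome position, were left out of all counts of genes. A bound sets the bright signal against the higher of the dim signal and the lowest signal well above background on that array. On simulated arrays 200 of 200 genes given a log2 change of 1.5 were recovered among 18671, with 0 others called. The spread between cultures is unknown with 1 array per group. The simulation therefore checks the calculation and gives no rate of false calls in the data. The members, lists, motifs and rule for named genes (all members, pathway genes past 2-fold, targets and proneural genes, and the 3 genes nearest to Dll1 and to Lfng) were chosen with earlier results of these data known. The values of 1 listed gene are not reported here. Python 3.11.15, statsmodels 0.14.6 and limma 3.58.1 were used. Another 10 settings changed the scaling, background, filters, probe summary or outliers.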

Additional observations from a re-analysis of the deposited data

How the results depend on the processing

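Under the 10 alternatives, the count of members at least 2-fold lower stayed at 5 except with the stricter filter on dim probes, which left 4 because Lfng was no longer measured, and 0 were at least 2-fold higher in each. With dim probes kept, the 5 were Dll1, Dll3, Dll4, Jag1 and Lfng, as the dim probes joined the medians of Notch2 (−0.95) and Dll1 (−1.29). Spike-in centring, on 8 probes, shifted every gene by −0.39. It gave medians of −0.66 for receptors, −3.04 for Delta and −0.82 for Jagged ligands, with 2964 genes at least 2-fold lower and 1397 higher, so that 68.0% of calls were lower against 43.3% as reported. Median centring shifted the median of all genes by −0.11 and gave −0.38, −2.76 and −0.54. With normexp the receptor median was −0.12, the Delta median −2.43 and 1048 genes were at least 2-fold lower. Without the filter the Delta median was −1.95, and 2587 genes were lower and 4036 higher. The stricter filter left 1396 genes higher and, like the brightest probe, gave a receptor median of −0.12, since Notch1 then rests on 1 probe (0.16). The sign of Notch1 also turned with normexp (0.01). Notch3 ran from −0.46 to −0.05 and Jag2 from 0.18 to 0.56. No value past 2-fold changed its sign. No paired analysis was possible because each group has 1 array. Dim signals limit Dll4, the first Lfng probe and the Ensembl-based probes.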

Other observations

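The genes most like Dll1 and Lfng were sought by log2 difference alone, the 1 measure of likeness that 2 arrays allow. Nearest to Dll1 were Cavin2 and Onecut2 (both −3.16) and Foxa1 (−3.17). Nearest to Lfng were Dach2 (−3.23), Pcdhb6 (−3.23) and Hoxa3 (−3.24).

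One of the 3 Notch4 probes, designed on a cDNA clone, is placed at chr17:35104770-35104829 (mm9), 379386 bases from the probe that carries the Notch4 value. It read 19.4 on the knockout array and 20.9 on the wild type array, not well above background on either.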
